A study of Homo sapiens with 6 samples.

Results

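The effect of 4 h of camptothecin on open chromatin was examined in cells that lack SLFN11, by setting the ATAC-seq peak list of SLFN11-knockout CCRF-CEM cells treated with 100 nM camptothecin for 4 h against that of the same knockout line treated with DMSO. CCRF-CEM is an established human T lymphoblast leukaemia line, and ATAC-seq marks open chromatin by where a transposase can cut it. These are 2 of the 6 libraries of the series. The others are the knockout at 2 h of camptothecin and the SLFN11-positive parent line at 4 h, at 2 h and in DMSO, each represented by 1 library. There are no replicates, since every group holds 1 library, and treatments were therefore compared without a test. The intervals given are 95% intervals (Wilson for shares) that cover counting error alone, and neighbouring peaks and amplified reads are not independent.

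A list was assigned to a condition by its library code, which appears in its peak names and in the bracket of a sample title. This placement matters, because in 0 of 3 knockout lists and 0 of 3 parent lists did the code match the title of the record that holds the list. By the record, the list used here as DMSO would be the 4 h library, and the list used here as 4 h would be the 2 h library. The length of the DMSO treatment is not given in the sources used here, nor is whether the knockout line is 1 clone, so clone and genotype cannot be told apart.

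Camptothecin holds topoisomerase I on DNA after the enzyme has nicked it, and a replication fork that meets such a complex stalls or breaks. SLFN11 is recruited to stressed forks that carry replication protein A, blocks their progress and is known for opening chromatin at such sites and for sensitising cancer cells to drugs that damage replicating DNA. Cells without it continue to replicate under the drug and survive better, so the knockout comparison addresses what camptothecin does to accessibility when this factor is absent. The deletion itself was not examined and peaks were not assigned to genes, because the coordinates are in hg19 and the gene tables used here are of another build. For the same reason the T lymphoblast identity was not checked against marker genes, and no sequences of the regions are shown.

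After 4 h of camptothecin, knockout cells had almost as many accessible regions as in DMSO. On the autosomes and X, 19167 merged peaks were called at 4 h and 19289 in DMSO. The log2 ratio of these numbers was -0.01, with an interval that ran between -0.04 and 0.02. The ratio was lower, with intervals below 0, among peaks with a -log10 q of at least 5 (-0.060, -0.094 to -0.026), among peaks wider than 170 bp (-0.047, -0.078 to -0.017) and with lists placed by their record (-0.12, -0.14 to -0.087). The 4 h peaks covered 7.79 Mb and the DMSO peaks 8.20 Mb. The 4 h peaks were also somewhat narrower, with a median width of 352 bp, against 374 bp in DMSO. Peaks with more than 1 summit made up 23.7% of the 4 h list and 24.0% of the DMSO list. The median fold enrichment over local background, a value of the authors' peak caller within each list, was 5.66 at 4 h and 5.74 in DMSO.

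Depth was judged from the peaks, since read totals were not used. The pileup at a summit, meaning the number of reads or fragments stacked there, and its local background were recovered from the deposited fold and p-value. The lowest local background, which depends on depth and on how far reads were extended, was 1.36 at 4 h and 1.27 in DMSO, 0.10 higher at 4 h on the log2 scale. The median pileup of a peak was 18 at 4 h and 19 in DMSO. In the least significant 10% of either list the median pileup was 10, so the weakest calls rest on few reads.

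Peaks found at 4 h alone and peaks found in DMSO alone were about equal in number. Of the 19167 peaks of the 4 h list, 3941 met no DMSO peak by 1 bp or more (20.6%, interval 20.0 to 21.1%), and these are called added below. Of the 19289 DMSO peaks, 4131 met no 4 h peak (21.4%, 20.8 to 22%), and these are called missing. The remaining 15226 peaks of the 4 h list and 15158 of the DMSO list overlapped and formed 15038 shared regions. The near equality ended among peaks with a -log10 q of at least 5 in both lists, with 17.6% added (16.99 to 18.3%) and 21.1% missing (20.4 to 21.8%). It also ended among peaks wider than 170 bp, with 18.96% added (18.4 to 19.6%) and 21.9% missing (21.2 to 22.5%). Placed by record instead, the knockout list at 4 h would lack 23.1% of DMSO peaks and add 16.5% of its own.

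The differing peaks were the small ones on both sides. Added peaks had a median width of 198 bp, a median fold of 4.37 and a median pileup of 12, while shared peaks of the 4 h list had 413 bp, 6.17 and 21. Missing peaks had a median width of 211 bp, a median fold of 4.41 and a median pileup of 12, while shared peaks of the DMSO list had 436 bp, 6.30 and 22. A -log10 q under 5, not far above the limit of 2 at which the lists end, was found in 70.3% of added and 67.0% of missing peaks, but in 18.9% and 16.0% of the shared peaks of the 4 h and DMSO lists.

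Width sorted the peaks in a like way. Among peaks of up to 170 bp, 55.2% of those in the 4 h list were added and 58.0% of those in the DMSO list were missing. Among peaks above 500 and up to 1000 bp, 1.17% were added (60 peaks) and 2.05% were missing (117 peaks). None of the 421 peaks above 1000 bp in the 4 h list was added, which allows a share of up to 0.90% by the interval, and none of the 482 in the DMSO list was missing, which allows up to 0.79%. Among peaks of at least 300 bp, 629 were added, beside 10599 shared peaks of the 4 h list. In the DMSO list 913 of this width were missing, beside 11063 shared peaks. Above 300 and up to 500 bp, 9.92% of 4 h peaks were added (9.17 to 10.7%) and 13.7% of DMSO peaks were missing (12.9 to 14.6%). The wider differing peaks thus lay more often on the DMSO side. The whole 4 h list was also narrower, by its median, and its part in this count was not tested.

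Each list was ordered by -log10 p and divided into 10 classes of equal size, and the differing peaks lay mostly at the weak end. In the most significant class of the 4 h list, 17 of 1916 peaks were added (0.89%, 0.55 to 1.42%), and in that of the DMSO list 9 of 1928 were missing (0.47%, 0.25 to 0.88%). In the fifth class the shares were 9.96% added and 8.66% missing. In the least significant class they reached 60.5% added (58.3 to 62.7%) and 62.7% missing (60.5 to 64.9%). The curves of both lists ran together, with overlapping intervals in every class but the second. In the second class 14 peaks were added (0.73%, 0.44 to 1.22%) and 2 were missing (0.10%, 0.03 to 0.38%).

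**Figure D1:**
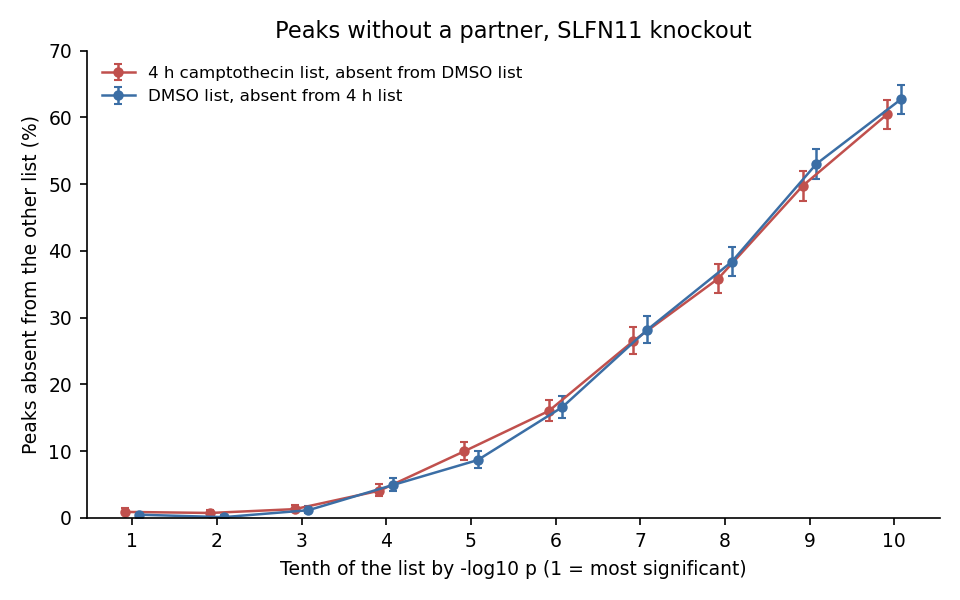
Share of peaks absent from the other list (y axis, percent) in each of 10 equal classes of a list ordered by -log10 p (x axis, 1 the most significant), for the 4 h camptothecin list and the DMSO list of SLFN11-knockout cells. Bars are Wilson 95% intervals for counting error, and both curves climb from under 1% in the first class to 60.5% (4 h) and 62.7% (DMSO) in the last.

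Cutting both lists to equal length by -log10 p removed the difference in length and is shown for several lengths. With both cut to 19167 peaks, 3981 peaks of the 4 h list (20.8%) and 4049 of the DMSO list (21.1%) had no partner. With both cut to 14205, the length of the shortest of the 6 lists, the numbers were 2750 (19.4%, 18.7 to 20.0%) for 4 h and 2770 (19.5%, 18.9 to 20.2%) for DMSO. Equal lengths make the numbers on each side nearly equal by construction, so the informative value is the share, about 1 peak in 5 at these lengths. The share was larger among fewer peaks, at 25.9% for 4 h and 26.0% for DMSO with 5000, 33.15% and 33.25% with 2000, and 34.4% and 34.5% with 1000.

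Stricter cuts showed that most such peaks were still called in the other list, only below the limit. At 10000 peaks, 2026 of the 4 h list lacked a partner in the cut DMSO list, of which 1649 were called lower in the full DMSO list and 377 were absent from it (3.77%). The corresponding DMSO peaks were 2036, of which 1687 were called lower in the full 4 h list and 349 were absent (3.49%). At 5000 peaks, 1297 of the 4 h list and 1302 of the DMSO list lacked a partner, and 45 and 20 of them were absent from the other full list. Among strong peaks a change of rank was thus frequent, and absence from the other full list was found in at most 3.77% at the cuts from 1000 to 10000.

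**Figure D2:**
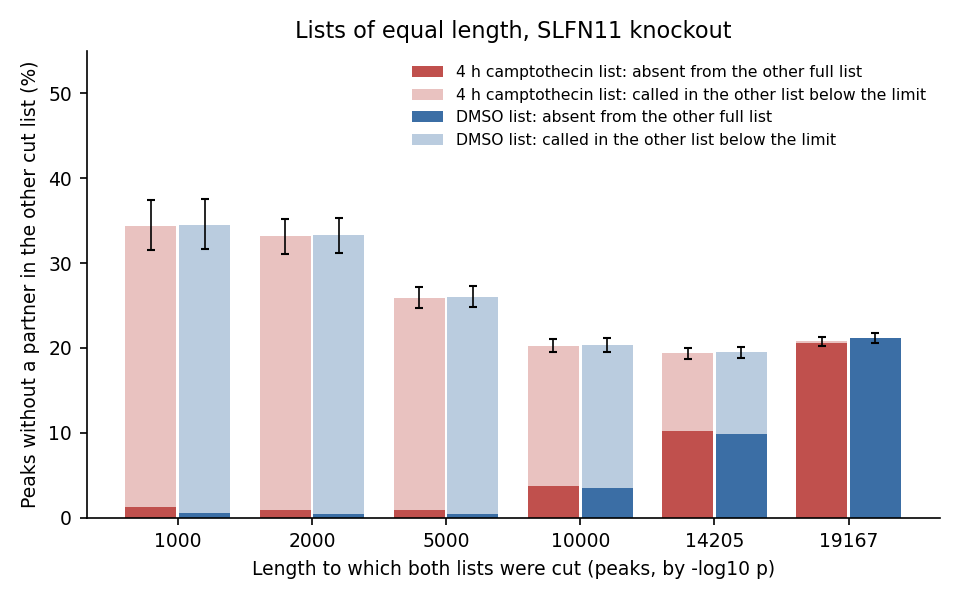
Share of peaks without a partner (y axis, percent) after both knockout lists were cut to the same number of peaks by -log10 p (x axis). Dark parts are peaks absent from the other full list and pale parts are peaks called there below the limit. Bars on top are Wilson 95% intervals of the whole share, and the dark part is 1.3% for 4 h and 0.60% for DMSO at 1000 peaks and nearly the whole share at 19167.

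The strong peaks that did differ were a heterogeneous set. Of the 5000 most significant 4 h peaks, 45 were absent from the DMSO list (0.90%, 0.67 to 1.2%), and of the 5000 most significant DMSO peaks, 20 were absent from the 4 h list (0.40%, 0.26 to 0.62%). Among the 45 at 4 h, 19 were no wider than 170 bp, a width found in 1.64% of those 5000 peaks, and 13 had a local background of at least 10, a level reached by 312 of those 5000. Among the 20 in DMSO, 5 were no wider than 170 bp, against 1.00% of the 5000, and 7 had a background of at least 10, a level reached by 282 of those 5000. Peaks of at least 300 bp with a background under 10 numbered 6 at 4 h and 3 in DMSO. No filter for repeated sequence was applied, and whether narrow peaks of high fold are open regions was not tested.

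Single peaks are named by their hg19 coordinates, counted from 1. The highest added peak was 130 bp wide at chr7:45291577-45291706, with a fold of 58.4 and a pileup of 673 over a background of 10.5, and was called in none of the other 5 lists. Next came 132 bp at chr9:44070663-44070794, with a fold of 32, which the parent list at 2 h also held (30.2), and 129 bp at chr16:35239602-35239730, with a fold of 28, which the parent list at 4 h held too (22.8). The peak at chr6:133593993-133594136, with a fold of 19.8, was called in all 3 parent lists, at 24.8 at 4 h, 22.5 at 2 h and 13.3 in DMSO. The peak at chrX:61815105-61815233, with a fold of 14.5, was called in the knockout at 2 h (14.1) and in parent DMSO (16). Of these 5 sites, 1 was in the knockout list at 2 h and 2 were in the parent DMSO list.

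The highest missing peak was 140 bp wide at chr9:70076689-70076828, with a fold of 18 in DMSO and no call in any other list. It was followed by chr11:48899044-48899261, with a fold of 15.4 in DMSO, which the knockout at 2 h (13) and the parent at 4 h (16.5) also held. A neighbour at chr11:48946392-48946637, with a fold of 12.6 in DMSO, was also in the parent list at 4 h (14.4). The peak at chr4:27077331-27077476, with a fold of 11 in DMSO, was also called in the knockout (5.89) and the parent (6.64) at 2 h. The peak at chr2:133003257-133003416, with a fold of 10.8 in DMSO, was in no other list. None of these 5 exceeded 246 bp.

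The highest differing peaks of at least 300 bp were lower, and each of the 5 on either side was called in at least 1 other library. Among added peaks of at least 300 bp, the highest was chr2:163588730-163589029, with a fold of 9.32 and a pileup of 21 at 4 h, called at 8.02 in the knockout and 4.8 in the parent at 2 h. It was followed by chr7:81475716-81476171 (fold 8.90 at 4 h), which had 5.10 at 2 h in the knockout and was in no parent list. The peak at chr2:149282138-149282499 (fold 8.52 at 4 h) was in all 4 remaining lists, at 5.70 in the knockout at 2 h and between 4.49 and 5.19 in the parent lists. The last of these 5, chr7:110778202-110778525 (fold 8.05 at 4 h) and chr10:111674705-111675035 (fold 7.97 at 4 h), were at 5.98 and 4.50 in the knockout at 2 h. In the parent at 2 h they were at 6.98 and 4.55. All 5 were thus present in both camptothecin lists of the knockout and absent from its DMSO list. This pattern was found in 1606 of the 26092 regions of all knockout lists together (6.16%). A call at 4 h and absence from DMSO were fixed by the choice of these peaks. Of all added peaks, 43.3% were called in the knockout at 2 h.

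Among missing peaks of at least 300 bp, the highest was chr15:40675000-40675421, with a fold of 8.92 and a pileup of 25 in DMSO. Every list other than the knockout at 4 h held it, at 6.58 in the knockout at 2 h and at 11.7, 7.10 and 5.10 in the parent at 4 h, at 2 h and in DMSO. The same was true of chr20:23882993-23883321 (fold 8.79 in DMSO), chr14:60386432-60386849 (8.13), chr1:248645344-248645751 (7.90) and chr1:38455551-38455939 (7.83). The last of these had a fold of 13.1 in the parent at 4 h and 7.41 in the knockout at 2 h. The other 3 of the 5 highest missing peaks of this width were held by fewer lists. The peak at chr1:168489544-168490260 (fold 8.62 in DMSO, 717 bp) was in the parent lists at 4 h (8.17) and 2 h (8.65). The peak at chr13:100834943-100835425 (fold 8.52 in DMSO) was in the parent lists at 2 h (4.85) and in DMSO (3.84), and chr4:145477839-145478227 (fold 8.26 in DMSO) was in the knockout at 2 h (3.80). Added peaks of this width that only the knockout DMSO list lacked were listed after the values were seen. They were led by chr2:149282138-149282499 (fold 8.52 at 4 h), chr4:548856-549434 (7.89) and chr16:9057779-9058078 (7.77).

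Peaks of at least 300 bp found in a single library were lower still. Among added peaks of at least 300 bp found in no other list, the highest was chr5:145945425-145945779, with a fold of 7.2 and a pileup of 16. It was followed by chr7:43612202-43612547, with a fold of 6.51 and a pileup of 18, and chr1:153571092-153571450, with a fold of 6.47 and a pileup of 15. The mirror set, chosen after the values were seen, held missing peaks of this width found in no other list. It was led by chr6:168962006-168962425, with a fold of 7.07 and a pileup of 16 in DMSO, and chr10:115001705-115002006, with a fold of 7.06 and a pileup of 15. These peaks had pileups of 15 to 18, where small counts leave wide error.

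The other 4 libraries were used to ask whether the differing peaks exist elsewhere. Of the 3941 added peaks, 1706 were also called in the knockout at 2 h (43.3%, 41.7 to 44.8%), and of the 4131 missing peaks, 1869 (45.2%, 43.7 to 46.8%). In shared peaks the share was 93.9% for the 4 h list and 94.0% for the DMSO list. A 2 h call was thus slightly less frequent among added than among missing peaks. The intervals overlap, and the difference was not tested. The parent list at 4 h held 40.2% of added and 46.2% of missing peaks, the parent list at 2 h 48.9% and 54.2%, and the shorter parent DMSO list 15.7% and 17.6%. Missing peaks were thus called more often than added ones in both parent camptothecin lists, and missing peaks were also the wider set, whose part in this was not tested.

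Some differing peaks were found nowhere else. None of the other 4 lists held 1258 added peaks (31.9%, 30.5 to 33.4%) and 1163 missing peaks (28.2%, 26.8 to 29.5%), against 1.48% of shared 4 h peaks and 1.44% of shared DMSO peaks. All 4 other lists held 268 added peaks (6.8%) and 380 missing peaks (9.20%), so these sites were called in every library but 1. Among the stronger ones, with a -log10 q of at least 5, 59.0% of 1169 added and 63.2% of 1365 missing peaks were in the knockout list at 2 h. Of these stronger peaks, 20.1% of added (17.9 to 22.5%) and 14.8% of missing (13.01 to 16.8%) were in none of the other 4 lists.

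**Figure D3:**
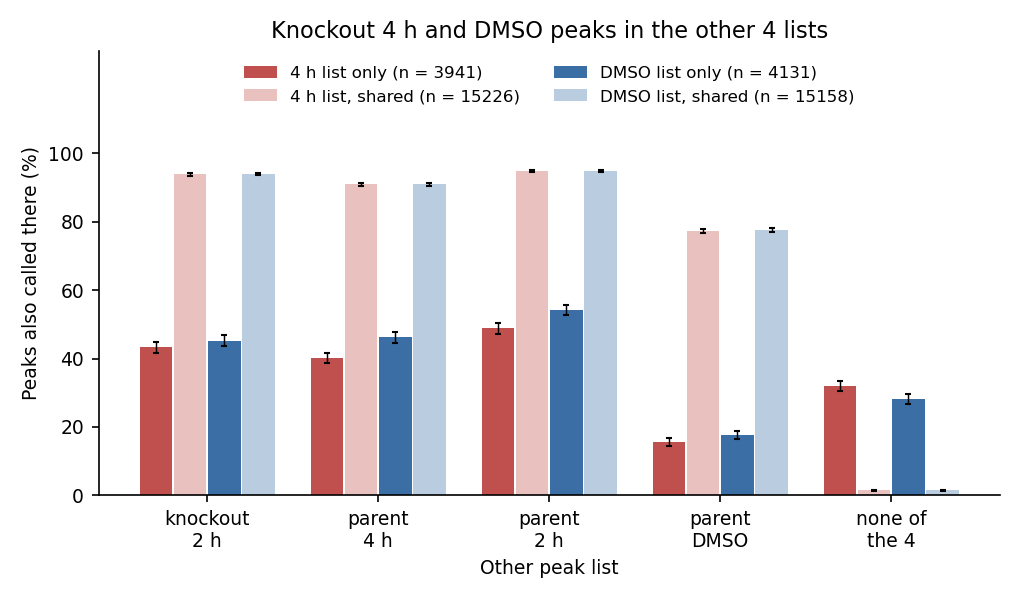
Share of knockout peaks also called in each of the other 4 lists, and in none of them (x axis), in percent (y axis). Dark bars are peaks of the 4 h list only and of the DMSO list only, pale bars are the shared peaks of each list, and lines are Wilson 95% intervals. Shared peaks are found in the knockout at 2 h in about 94% of cases and differing peaks in 43.3% (4 h list) and 45.2% (DMSO list).

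The 3 knockout lists were also read together over time. Their union held 26092 regions, of which 14179 were called in DMSO, at 2 h and at 4 h (54.3%, 53.7 to 54.9%). Regions absent in DMSO and present at both 2 h and 4 h numbered 1606 (6.16%, 5.87 to 6.45%). Regions present in DMSO and absent at both times numbered 2262 (8.67%, 8.33 to 9.02%). The former need a call in both camptothecin lists and the latter in a single list, so these numbers do not weigh gain against loss. With a -log10 q of at least 5 the order was reversed, at 1082 of the former and 503 of the latter. Regions called at 4 h alone numbered 2235 (8.57%, 8.23 to 8.91%), and those called at 2 h alone 3181 (12.2%, 11.8 to 12.6%). Regions present in DMSO and at 2 h but not at 4 h numbered 1758 (6.74%), and regions absent at 2 h alone 871 (3.34%), the smallest class. Regions of a single list were narrow, with medians of 194 bp for DMSO, 196 bp for 2 h and 185 bp for 4 h, and regions of several lists are not compared in width, because they are merged spans. The 2 h library has the longest of the 3 lists, 20894 peaks, and the lowest background at nearly the same level as 4 h (1.37), and the part of list length in these numbers was not tested.

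The height of regions called in both lists was compared by pileup. A region that fell below the calling limit in either library is not among them, so large differences of weak regions are left out by this choice. Over the 15038 shared regions, the median log2 ratio of summit pileup, 4 h over DMSO, was -0.05, and ratios are given relative to this median below. The middle 50% of regions lay between -0.26 and 0.26, and the SD over regions was 0.39. Counting error alone, taken from the pileups as for independent reads, would give 0.46. The SD was below counting error among the weak regions, at 0.42 against 0.58 for a geometric mean pileup under 15 and 0.42 against 0.49 from 15 up to 20, so it does not measure stability there. A difference of more than 2-fold was found in 178 regions (1.18%, 1.02 to 1.37%), with 92 higher at 4 h (0.612%) and 86 lower (0.572%). On the log2 scale, Pearson's r of the pileups was 0.90 across regions, which are not independent replicates and share a threshold.

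The spread over regions narrowed with height. At a geometric mean pileup from 30 up to 50, the SD over 2939 regions was 0.31, against 0.34 from counting, and 8 differed by more than 2-fold. From 50 up to 100 it was 0.28, against 0.27 from counting, and 1 of 529 regions differed by more than 2-fold. In the highest class the regions were shifted. At a geometric mean of 100 and above, 270 of 295 regions were higher at 4 h than the median region, by a median of 0.23 on the log2 scale, with an SD of 0.17 against 0.14 from counting. In 256 of these 295 regions the local background was at least 10 in both libraries, with medians of 47.8 at 4 h and 42.6 in DMSO, so background was higher at 4 h as well, and its part in this shift was not tested.

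**Figure D4:**
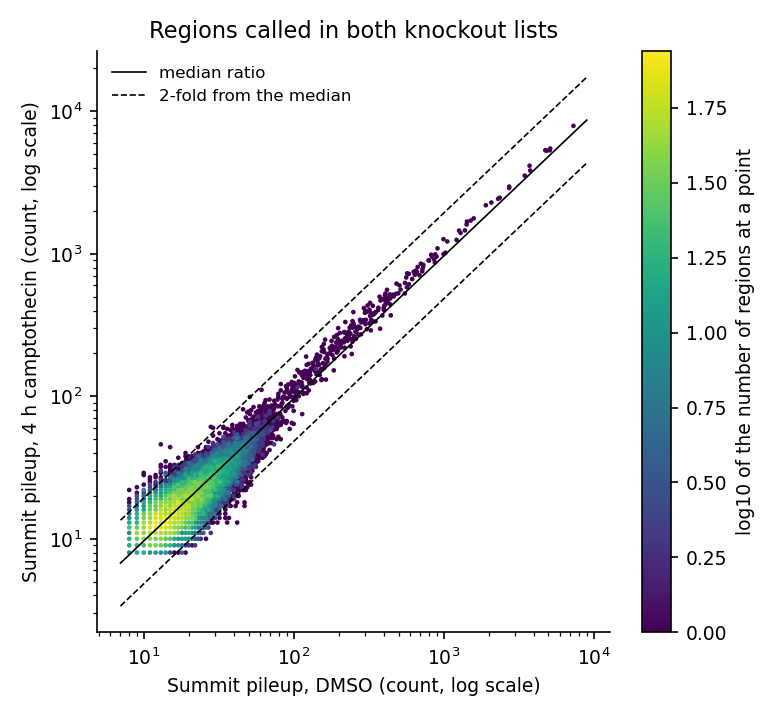
Summit pileup recovered for the 15038 regions called in both knockout lists, with 4 h camptothecin on the y axis and DMSO on the x axis, both as counts on log scales. Colour gives the log10 of the number of regions at a point, the solid line the median ratio and the dashed lines 2-fold from it. The 178 regions outside the dashed lines lie mostly at low pileup, with 8 at a geometric mean from 30 up to 50 and 1 above that.

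The shared regions at each end of the ratio, among 5004 with a pileup of at least 30 in either library, are given as a description. All 10 passed that limit through the library in which they were high, so the limit itself favours regions that differ. The region at chr12:38028901-38029137 had a pileup of 46 at 4 h and 13 in DMSO, a log2 ratio of 1.88 relative to the median (0.96 to 2.89, exact interval). The knockout at 2 h had 59 there, the parent 13 at 4 h, 42 at 2 h and 17 in DMSO. It was chosen for its ratio, so a high value at 4 h and a low one in DMSO in the knockout is no separate result. Without scaling for depth, its pileup was also high at 2 h in the knockout and in the parent, but not in the parent at 4 h. At chr15:20005374-20005849 the pileup was 44 at 4 h and 15 in DMSO (1.61, 0.73 to 2.56), and the knockout list at 2 h lacked it. The other three at this end were chr1:75419189-75419615, chr9:114423645-114424149 and chr12:75723811-75724291, with 33, 35 and 32 at 4 h against 13, 14 and 13 in DMSO, and with 18, 22 and 22 in the knockout at 2 h. In each of these the 2 h value lay between those of DMSO and 4 h. They were chosen for a high ratio of 4 h over DMSO, so a 2 h value in between is no separate result. Pileups were not scaled for depth.

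At the lower end, chr18:55309422-55310042 had a pileup of 13 at 4 h and 42 in DMSO (-1.64, -2.66 to -0.71). The knockout at 2 h had 46 there and the parent 75 at 4 h, 96 at 2 h and 30 in DMSO, with no scaling for depth. The region was chosen for its low value at 4 h, so a low rank of that library among the 6 is no separate result. In 2 regions the DMSO pileup was 47. At chr19:3572523-3573120 the pileup was 17 at 4 h and 47 in DMSO (-1.41, -2.31 to -0.59), and 47 in the knockout at 2 h. At chr3:125313973-125314725 the pileup was 18 at 4 h and 47 in DMSO (-1.33, -2.20 to -0.52), and 37 in the knockout at 2 h. At chr1:1509910-1510473 it was 13 at 4 h and 36 in DMSO (-1.42, -2.46 to -0.47), and 21 in the knockout at 2 h. At chr16:14927429-14927874 it was 14 at 4 h and 37 in DMSO (-1.35, -2.35 to -0.43), and 28 in the knockout at 2 h. These intervals take no account of the choice of extremes among 5004 regions.

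Shared peaks lay close to each other in position. Of the shared regions, 14742 (98.0%) paired 1 peak of each list. In those pairs the summits lay a median of 46 bp apart, within 100 bp in 76.3% of cases. The 4 h peak was the wider in 44.9% of pairs and the DMSO peak in 54.6%, with median widths of 414 bp at 4 h and 435 bp in DMSO. Shared bases amounted to 5.83 Mb, 74.8% of those covered at 4 h and 71.1% of those covered in DMSO. Most differing peaks lay more than 10 kb from any peak of the other list, with 30.7% of added and 31.3% of missing peaks within that distance. These distances were not set against the spacing of peaks within a list. The nearest DMSO peak was a median of 27.2 kb from an added peak, and the nearest 4 h peak 22.5 kb from a missing one, with 12.9% of added and 11.3% of missing peaks within 1 kb.

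Chromosomes differed mildly. The number of peaks was higher at 4 h on 8 chromosomes and lower on 15, with log2 ratios from -0.15 on chromosome 22 to 0.09 on chromosome 18, and the interval included 0 on each of the 23. Chromosome 19, the densest in genes, had the smallest turnover, with 11.1% added (9.22 to 13.4%) and 15.9% missing (13.7 to 18.4%). The highest share added was 31.1% on the gene-poor chromosome 18 (26.5 to 36.1%), and the highest share missing was 29.0% on chromosome 21 (23.5 to 35.2%).

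Grouping chromosomes by their known gene density, a choice made with earlier results of these data known, showed a difference in added peaks. On the gene-rich chromosomes 17, 19 and 22, 14.1% of 4 h peaks were added (12.7 to 15.7%) and 19.3% of DMSO peaks were missing (17.7 to 21.1%). On the gene-poor chromosomes 4, 13 and 18, 24.7% were added (22.8 to 26.7%) and 22.4% were missing (20.5 to 24.4%). Among peaks of at least 300 bp, 2.78% were added on the gene-rich group (2.00 to 3.86%) and 6.20% on the gene-poor group (4.90 to 7.81%), while 7.24% were missing on the gene-rich and 6.96% on the gene-poor group. Shared regions had a median log2 pileup ratio, relative to all shared regions, of -0.05 on the gene-rich and 0.05 on the gene-poor group. Pileups are whole numbers, and the gene-poor value is that of a region with equal pileups in both libraries. Both medians are small beside the SD of 0.39 over regions, and base composition and depth, which can move with gene density, were not tested.

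**Figure D5:**
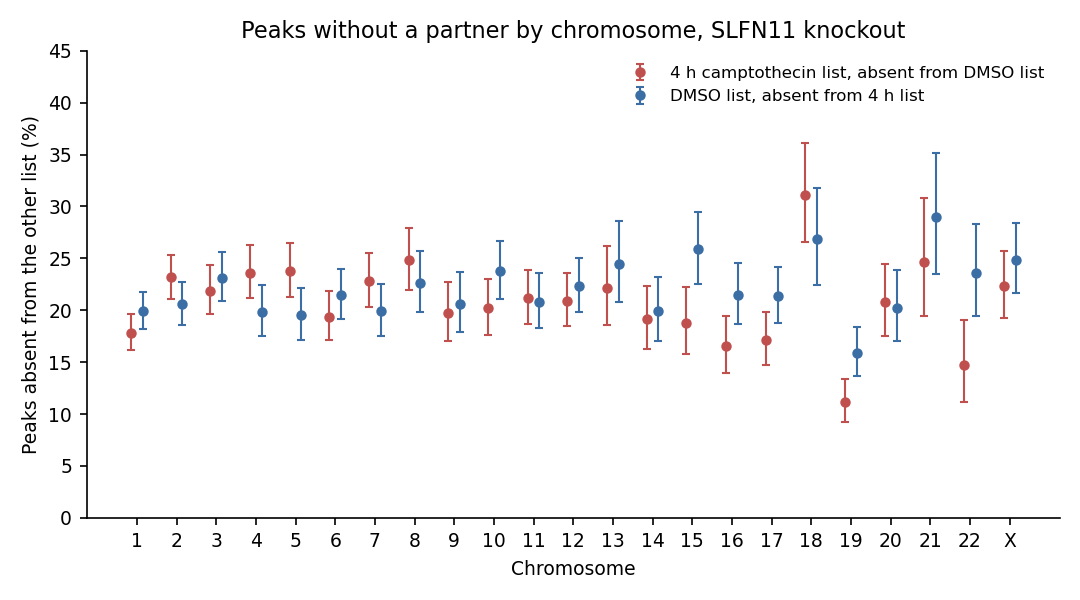
Share of peaks absent from the other list (y axis, percent) on each chromosome (x axis), for the 4 h camptothecin list and the DMSO list of SLFN11-knockout cells, with Wilson 95% intervals. Chromosome 19 is lowest in both, at 11.1% for 4 h and 15.9% for DMSO, and chromosome 18 is highest for 4 h at 31.1%.

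The same comparison in SLFN11-positive parent cells is set beside that of the knockout. By the library codes, the knockout had 20.6% added and 21.4% missing peaks at 4 h. The parent had 9247 added (42.8%, 42.1 to 43.4%) and 1584 missing (11.2%, 10.6 to 11.7%), and its peak numbers gave a log2 ratio of 0.61 (0.58 to 0.64). The parent DMSO list is the shortest of the 6, with 14205 peaks, so a cut to that length leaves it whole, weakest calls included. Both knockout lists and the parent list at 4 h lose their weakest peaks by it. The cut lists thus end at unlike significance, and the part of this in the shares and widths was not tested. With all lists cut to 14205, the knockout had 19.4% added and 19.5% missing, and the parent 24.4% added (23.7 to 25.1%) and 22.5% missing (21.9 to 23.2%). In these cut lists added peaks had a median width of 250 bp in the knockout and 425 bp in the parent, and missing peaks 285 bp in the knockout and 217 bp in the parent. Whether the genotypes differ was not tested, with 1 library in each group.

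Within the knockout, the comparisons that involve the 2 h library share a library with that of 4 h and DMSO, and their values are given side by side. At 14205 peaks each, 19.4% were added and 19.5% missing between 4 h and DMSO, 17.5% and 17.3% between 2 h and DMSO, and 18.1% and 18.4% between 4 h and 2 h. Of the 5000 most significant peaks, 45 were added and 20 missing between 4 h and DMSO, 22 and 16 between 2 h and DMSO, and 30 and 16 between 4 h and 2 h. In the parent, 90 were added and 79 missing between 4 h and DMSO. In each of these comparisons under 2% of the 5000 most significant peaks were absent from the other full list.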

How the data were processed

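Chromatin accessibility was measured in 6 libraries, 1 per group, of which 2 are compared. Per the submitters' processing notes, the tools were MACS2 2.1.2, Picard 2.9.2, BWA 0.7.17, Trimmomatic 0.39, SAMtools 1.8 and Trim Galore 0.6.2 on hg19, with no roles stated. How reads were shifted, how duplicates were handled and which background was modelled can move peak edges and numbers, and none of this is stated in the labels or notes. Each deposited list gives, per entry, the fold enrichment ratio, -log10 p and -log10 q that the authors' caller assigned against local background. The deposited score equals 10 times the -log10 q, truncated, in every entry of both lists. All lists end at a -log10 q of 2. Each list carries 1 library code in its peak names.

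Entries off chromosomes 1 to 22 and X (0.58% of the 4 h list and 0.57% of the DMSO list) were left out, and overlapping entries were merged, keeping the highest values. An overlap of 1 bp counted as shared. Shares carry Wilson 95% intervals. Pileup and background were solved from fold and p under a Poisson model, and at least 99.97% of entries in both lists came within 0.02 of a whole number. Read totals were not used. The peaks named come from the 5 of highest fold in each set described, and from the 5 shared regions at each end of the pileup ratio among those with a pileup of at least 30 in either library. No alternative tool applied to peak lists, so those tried change thresholds, overlap, merging, width, list length and placement. The comparison, the chromosome groups and the sets were chosen with earlier results of these data known. Overlap, merging and pileup recovery were tested on simulated data. The simulated pileups did not reach the highest of the data (7909 at 4 h and 7336 in DMSO). Nor did they cover the lowest folds of merged peaks (1.47 at 4 h and 1.42 in DMSO). Python 3.11.15, pandas 2.3.3 and SciPy 1.17.1 were used.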

Additional observations from a re-analysis of the deposited data

Results flagged for a closer look

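The log2 ratio of peak numbers, 4 h of camptothecin over DMSO, was -0.0092 in the knockout and 0.61 in the parent. Both values place the lists by library code, and the parent value by record is not given here. Each rests on 1 library against 1, the knockout interval includes 0, and the difference was not tested.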

How the results depend on the processing

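With a -log10 q of at least 5 in both lists, 17.6% of peaks were added, 21.1% were missing and the log2 ratio of peak numbers was -0.060; with that limit in the counted list alone, 8.65% were added and 9.68% missing. An overlap of 50% of the shorter peak gave 22.8% added and 23.5% missing (23.2% in lists of equal length), and a distance of up to 500 bp gave 18.7% and 19.8%. Lists cut to 14205 gave 19.4% added and 19.5% missing, lists cut to 10000 gave 20.4% missing, and lists cut to 5000 gave 25.9% added and 26.0% missing. Unmerged entries gave 15.9% added and 16.7% missing. Peaks wider than 170 bp gave 19% added, 21.9% missing, 20.3% missing in lists of equal length and a log2 ratio of -0.047. Placement by the record gave 16.5% added, 23.1% missing, 19.3% missing in lists of equal length and a log2 ratio of -0.12. The share of shared regions past 2-fold was 0.87% by the record. It was 1.02% with a pileup of at least 30 in either library, a limit that favours regions high in 1 library. Taken relative to the median of all shared regions, as in the results above, the share at that limit was 1.12%. That value lies within the interval of the value reported. With a geometric mean of at least 30, chosen after seeing the data, it was 0.239%. In all, 10 values, among them the missing shares above -log10 q 5 in both lists and above 170 bp and the cut by fold, stayed within the interval of the value reported. More values left it. These were 9 added shares, 8 missing shares, 6 missing shares at equal length, 3 ratios of peak numbers and 3 shares past 2-fold. The 1.02%, and not the 1.12%, is counted among the last. Shallow pileups limit what can be said of single weak peaks. No paired analysis was possible because each group holds 1 library.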
